A study of Mus musculus with 3 samples.

Results

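Collagen hydroxylation and crosslinking enzymes were examined on 3 arrays of mouse cardiac myofibroblasts, the contractile fibroblasts that lay down matrix in the injured heart. The set held 10 genes, chosen by name, but with earlier results of these data known. It comprised the lysyl oxidases Lox, Loxl1, Loxl2 and Loxl3, the lysyl hydroxylases Plod1 and Plod2, the prolyl hydroxylase subunits P4ha1, P4ha2 and P4ha3, and the collagen chaperone Serpinh1. These 10 genes may therefore not be independent of the data. They were read by 17 of 55665 probes and were 10 of the 15394 genes with a probe well above background on at least 1 array. Each of the 17 probes was well above background on all 3 arrays.

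All cells came from male C57BL/6J mice whose left anterior descending coronary artery had been permanently ligated. The hearts were taken 3 days later and digested with collagenase and elastase, the cells that settled on plastic overnight were kept, and the CD45-negative cells, depleted of leukocytes, were called myofibroblasts. The labels give the age as 8 weeks in one field and as 10 weeks at ligation in another. Adherent myofibroblasts were grown on plastic plates, non-adherent myofibroblasts had been moved from such plates into suspension, and re-adherent myofibroblasts were returned from suspension to plates. Each state had a single array, hybridised with RNA pooled over hearts, which leaves the variation between cultures unmeasured and allows no test. The states were collected one after another, so time in culture and state cannot be told apart. The paper reports that cell number fell in suspension through cell death after detachment, and that the remaining cells were plated again. Survival of a part of the cells and state therefore cannot be told apart either.

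Newly made procollagen chains are modified in the endoplasmic reticulum. Prolyl 4-hydroxylases, built of an alpha subunit (P4ha1, P4ha2 or P4ha3) and the beta subunit P4hb, hydroxylate prolines and thereby make the triple helix stable at body temperature. Lysyl hydroxylases (the Plod genes) hydroxylate lysines, which fixes the kind of crosslink that can form later and, for some lysines, allows sugars to be attached. HSP47, the product of Serpinh1, binds the folded procollagen and escorts it towards the Golgi. After secretion and trimming, the copper-dependent lysyl oxidases oxidise lysines and hydroxylysines, and the resulting aldehydes join neighbouring molecules into stiff, insoluble fibres. In the infarcted heart this crosslinking is part of how the scar gains strength and the wall its stiffness.

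Promoter windows of 5 of the 10 genes were read from the RefSeq promoter table of assembly GRCm38.p6. Those of Lox, Loxl1, Loxl2, Loxl3 and Plod2 were not read. The 3 whose window ends at the annotated start of the gene are shown. These are Serpinh1, which was lower in suspension, P4ha2, which differed by under 2-fold, and Plod1, which read higher there. The windows of P4ha1 and P4ha3 are not shown, since the annotated gene begins inside them and they may hold transcribed sequence. Each line gives the 250 bases before the start, 5′ to 3′ on the strand of the gene, and capitals mark a match, on either strand, to ACGTG, the core of the sites bound by hypoxia-inducible factors (HIF), known regulators of several collagen-modifying enzymes. The windows are chr7:99353240-99353489 on the minus strand for Serpinh1, chr11:54100674-54100923 on the plus strand for P4ha2 and chr4:147936777-147937026 on the minus strand for Plod1.
Serpinh1: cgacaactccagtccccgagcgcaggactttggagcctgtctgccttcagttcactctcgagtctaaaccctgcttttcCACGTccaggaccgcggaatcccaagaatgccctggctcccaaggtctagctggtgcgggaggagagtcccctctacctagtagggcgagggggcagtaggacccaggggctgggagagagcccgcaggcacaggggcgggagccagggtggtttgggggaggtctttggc
P4ha2: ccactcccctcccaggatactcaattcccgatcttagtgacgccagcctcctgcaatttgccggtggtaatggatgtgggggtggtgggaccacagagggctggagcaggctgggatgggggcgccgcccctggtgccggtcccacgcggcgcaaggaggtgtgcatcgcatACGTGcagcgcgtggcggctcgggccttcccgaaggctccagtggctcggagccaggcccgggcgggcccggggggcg
Plod1: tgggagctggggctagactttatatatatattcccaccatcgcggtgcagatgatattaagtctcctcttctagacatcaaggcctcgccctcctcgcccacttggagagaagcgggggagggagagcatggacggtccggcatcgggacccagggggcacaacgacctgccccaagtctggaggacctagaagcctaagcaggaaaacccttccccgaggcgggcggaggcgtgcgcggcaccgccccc

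The match lay 171 bases before the start of Serpinh1 on the minus strand of the window and 78 bases before the start of P4ha2 on the plus strand, and the Plod1 window held none. Of the windows not shown, that of P4ha1 had 1 match, 16 bases before the start used in the table, which may lie within the transcript, and that of P4ha3 had none. Across 32851 promoters of the same length in the table, 16.6% held at least 1 match. The letters GGAATG (TEAD factors, 12.6% of all promoters), GAANNTTC (heat shock factor, 6.69%), TGANTCA (AP-1, 6.75%) and CCAAT (NF-Y, 33.8%), searched on both strands, were absent from the windows of these 5 members. The ACGTG match was found in a gene that fell in suspension (Serpinh1), in P4ha1, whose array values hardly differed, and in P4ha2, which lay between them. A match of these letters is a description of the sequence and not a measured binding site.

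In suspension, transcripts of the crosslinking and lysine-hydroxylating enzymes Lox, Loxl2, Loxl3 and Plod2 were 5.51- to 22.7-fold lower than in adherent cells, Serpinh1 was 3.94-fold lower and P4ha3 was 2.36-fold lower. Loxl1, P4ha1, P4ha2 and Plod1 differed by under 2-fold on their main probe, the probe of a gene with the highest mean over the arrays. After re-adhesion all 6 genes that had fallen were over 2-fold higher again, and none of the 10 differed by over 2-fold from the first adherent cells. Differences are given on the log2 scale after each array was scaled to its 75th percentile, so that -1 is 2-fold lower, and the error beside them combines the software's error of the spots on both arrays. It was 0.20 for most members and covers technical error only. Fewer cells of a type and less RNA per cell cannot be told apart in such bulk samples.

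**Figure D1:**
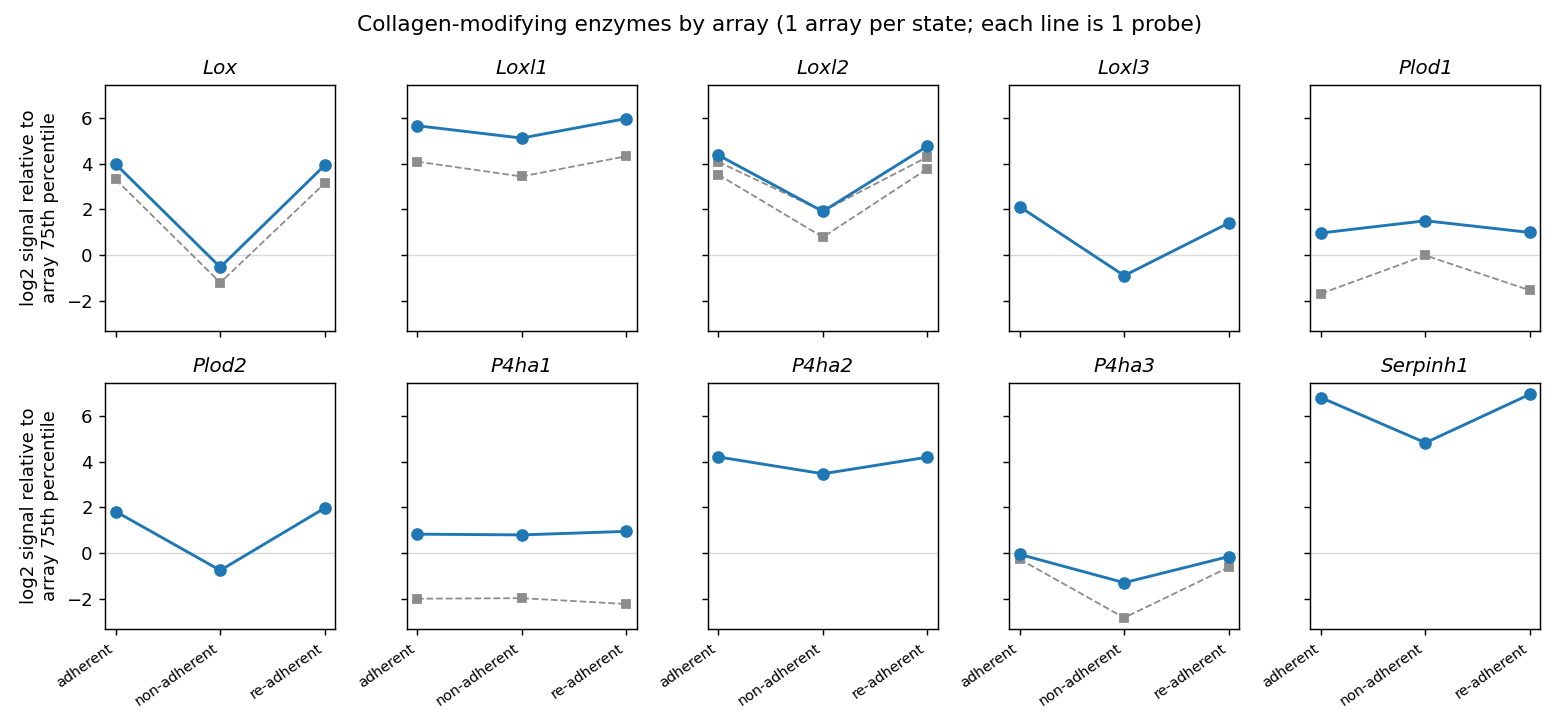
Levels of the 10 genes in each state (x axis: adherent, non-adherent, re-adherent; 1 array per state), as log2 processed signal relative to the array's 75th percentile (y axis). Each line is 1 probe, with the main probe in blue and solid and further probes of the same gene in grey and dashed; Lox, Loxl2, Loxl3, Plod2, P4ha3 and Serpinh1 dip by over 2-fold in suspension on every probe, and both Plod1 probes peak there.

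Lox, the founding lysyl oxidase and a main crosslinking enzyme of fibrillar collagen and elastin, had the largest difference of the set at both steps. Its main probe read 10237 intensity units in adherent, 482.1 in non-adherent and 8270 in re-adherent cells. The normalised level was 22.7-fold lower in suspension (log2 difference -4.51 ± 0.20, technical error) and 22.1-fold higher after re-adhesion (4.47). Only 0.695% of all genes had a lower difference in suspension than Lox. A second probe of the same transcript read 6448, 301.5 and 4790 units, with differences of -4.52 and 4.35. The 2 probes thus differed by at most 0.12 in each pair of arrays. The re-adherent array lay -0.04 from the adherent one on the main probe and -0.16 on the other, both within the technical error.

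Loxl2, a lysyl oxidase-like enzyme known for crosslinking type IV collagen and for its role in heart fibrosis, also dipped on all of its probes. The main probe read 13464 units on the adherent, 2617 on the non-adherent and 14726 on the re-adherent array. This was 5.51-fold lower in suspension (-2.46) and 7.24-fold higher after re-adhesion (2.86). Across its 3 probes the difference ranged from -2.74 to -2.15 for the first step and from 2.37 to 2.99 for the second. The re-adherent cells read 0.40 above the adherent cells on the main probe and 0.22 on the lowest probe, values that turned to -0.11 on the main probe when the arrays were scaled to the spike-in controls.

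Loxl3, a lysyl oxidase-like enzyme needed for normal palate and spine formation, was the member that came back least. Its single probe read 2823 units in adherent cells, 373.1 in suspension and 1431 after re-adhesion. The level was 8.10-fold lower in suspension (-3.02) and 4.94-fold higher after re-adhesion (2.30), which is 76.3% of the log2 fall. The remaining difference of -0.71 ± 0.20 between re-adherent and adherent cells was the only one among the 10 genes over 2 times the technical error, and 8.20% of all genes had a lower value in that pair. It stayed negative under all 11 alternative settings and passed 2-fold (-1.22) with the spike-in scaling, which took the all-gene median of that pair from 0.06 to -0.44.

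Loxl1, the lysyl oxidase-like enzyme known for elastic fibre upkeep, did not share the deep dip of its relatives. It read 32887 units in adherent cells, 24192 in suspension and 33963 after re-adhesion. The difference was -0.54 in suspension (1.45-fold lower) and 0.85 after re-adhesion (1.81-fold higher), with -0.65 and 0.89 on its second probe. Both steps were over 2 times the technical error and under 2-fold. Re-adherent cells read 0.31 above adherent cells on the main probe, a value that turned to -0.20 with the spike-in scaling. Set against Loxl1 within the same arrays, where the scaling cancels, the step into suspension differed by -3.97 ± 0.29 (the technical errors of both genes combined) for Lox, -2.48 ± 0.29 for Loxl3 and -1.92 ± 0.29 for Loxl2. Loxl4, a related enzyme outside the set, had differences of -3.85 and 4.21. With it, 4 of the 5 genes of the family fell by over 2-fold in suspension, against 14.7% of all genes. The same 4 rose by over 2-fold on re-adhesion, against 15.6% of all genes.

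Among the lysyl hydroxylases the members went in opposite directions. Plod2, the form that hydroxylates lysines in the telopeptides at the ends of the helix and so favours the stable crosslinks typical of scars, read 2301 units in adherent cells, 413.8 in suspension and 2130 after re-adhesion. It was 5.95-fold lower in suspension (-2.57) and 6.62-fold higher after re-adhesion (2.73). Its level in re-adherent cells lay 0.16 above the adherent level, within the technical error of 0.20, and was below it with no scaling, with the spike-in scaling and in the authors' matrix.

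Plod1, the form that hydroxylates lysines within the helix, was the member that stood higher in suspension. The main probe read 1271 units in adherent cells, 1972 in suspension and 1074 after re-adhesion, a difference of 0.54 in suspension and -0.51 after re-adhesion. A dimmer second probe read 202, 688.4 and 185.5 units, with 1.67 and -1.53. Both probes pointed the same way at each step, but the sizes differed by 1.14 and 1.02, and only the second probe passed 2-fold. With the mean over the probes in place of the brightest one, Plod1 counted as higher in suspension (1.1) and lower after re-adhesion (-1.02). Plod2 relative to Plod1 on the main probes was -3.11 ± 0.29 in suspension and 3.24 ± 0.29 after re-adhesion. Plod3, a lysyl hydroxylase that also transfers sugars and is not one of the 10, was -1.17 and 0.94.

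The 3 prolyl hydroxylase alpha subunits differed from each other as well. P4ha1, the widely expressed main alpha subunit, read 1158 units in adherent cells, 1213 in suspension and 1048 after re-adhesion, with differences of -0.03 and 0.15. A dimmer probe read 163.7, 178 and 115.9 units, with 0.02 and -0.26. No direction can be given for P4ha1, since the sign of its differences changed between probes and scalings and the main values lay within the technical error.

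P4ha2, the second alpha subunit, read 12049 units in adherent cells, 7741 in suspension and 9949 after re-adhesion. The differences were -0.74 in suspension (1.67-fold lower) and 0.73 after re-adhesion (1.65-fold higher), over 3 times the technical error and under 2-fold. The re-adherent value lay -0.01 from the adherent one. The spike-in scaling took the fall in suspension past 2-fold (-1.18). The rise after re-adhesion shrank to 0.36 with no scaling, 0.45 in the authors' matrix and 0.48 with quantile normalization.

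P4ha3, the third and least widely expressed alpha subunit, read 627.7, 284.7 and 487.8 units on its main probe and 542.3, 98.3 and 353.2 on the other. The main probe was 2.36-fold lower in suspension (-1.24) and 2.20-fold higher after re-adhesion (1.14), the second probe 5.90-fold lower (-2.56) and 4.62-fold higher (2.21). Both probes fell and rose, with a disagreement on size of 1.32 at the first step and 1.07 at the second. At each step this was the widest of any member. The return on the main probe was under 2-fold in 3 of 11 alternative settings, down to 0.78 with no scaling. Relative to P4ha1 within the same arrays, P4ha3 changed by -1.21 ± 0.29 and 0.99 ± 0.29 on the main probes. This error does not cover the disagreement between the P4ha3 probes. The partner of all 3, P4hb, also known as protein disulphide isomerase, had differences of -0.42 and 0.44.

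Serpinh1, which encodes the collagen-specific chaperone HSP47, had a single probe. It read 72905 units in adherent cells, 19827 in suspension and 67116 after re-adhesion. The level was 3.94-fold lower in suspension (-1.98 ± 0.20) and 4.36-fold higher after re-adhesion (2.12), and re-adherent cells lay 0.15 from adherent cells, within the technical error. Of all genes, 5.44% had a lower difference in suspension. Relative to Col1a1, which encodes the main client chain of the chaperone, the change was -1.27 ± 0.29 and 1.69 ± 0.29.

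Counted together, 6 of the 10 genes were over 2-fold lower in suspension, where 14.7% of all genes were, and none was over 2-fold higher, where 17.2% of all genes were. The median of the 10 differences was -1.61 against -0.07 for all genes. On re-adhesion 6 of the 10 were over 2-fold higher, against 15.6% of all genes, and none over 2-fold lower, against 16.3%, with a median of 1.63 against 0.08. Both steps use the same non-adherent array, so an error of that array would move both in opposite directions. The comparison of re-adherent with adherent cells does not use it, and there none of the 10 passed 2-fold in either direction, against 4.90% of all genes lower and 4.84% higher. The median in that pair was 0.07 for the 10 genes and 0.06 for all genes. Of the 10 values, 7 lay within the technical error, and the share of all genes within it was not counted. The 25th and 75th percentiles of all genes there were -0.24 and 0.35, so small differences were common outside the set too. At a stricter 4-fold the non-adherent array was lower for 4 genes, Lox, Loxl2, Loxl3 and Plod2, with Serpinh1 just short at 3.94-fold. The 5th percentile of all genes in that pair was -2.06, so at least 5% of all genes were over 4-fold lower.

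**Figure D2:**
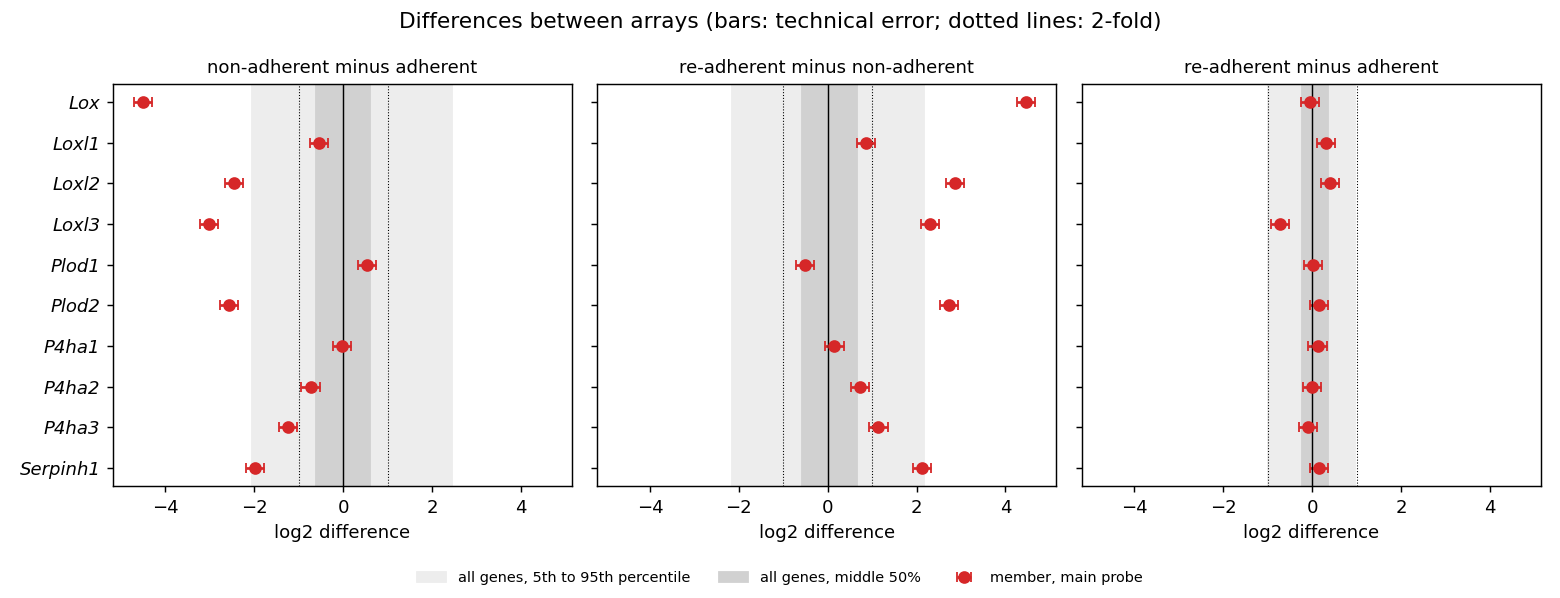
Log2 difference of each of the 10 genes (points, main probe; bars, technical error; 1 array per state) in the 3 pairs of arrays, with the middle 50% of all 15394 genes in dark grey, the 5th to 95th percentile in light grey and 2-fold as dotted lines. Lox, Loxl2, Loxl3 and Plod2 lie outside the light band at both steps, and all 10 genes lie between the 2-fold lines when re-adherent cells are set against adherent cells.

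Other genes of collagen processing were followed with a list of 30, of which 28 were well above background on at least 1 array; the probes of Tll2 and Adamts3 were not. A gene well above background on 1 array of a pair was counted at its bound, and one on neither array was left out. In suspension 10 of the 28 fell and 3 rose by over 2-fold (median -0.30), against 14.7% and 17.2% of all genes. On re-adhesion 8 of 26 were over 2-fold higher and 3 lower (median 0.32), against 15.6% and 16.3% of all genes. None of 27 passed 2-fold between re-adherent and adherent cells (median 0.00), against 4.9% of all genes lower and 4.84% higher.

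Partners of the hydroxylases in the endoplasmic reticulum differed in how far they moved. Fkbp10, a prolyl isomerase needed for telopeptide lysine hydroxylation, was -2.03 in suspension and 2.00 after re-adhesion, and P3h4, known as part of a lysyl hydroxylase complex, was -2.03 and 1.91. P3h3, known from the same complex, was -0.25 and 0.11. Fkbp14, a related isomerase, was -1.44 and 1.44. P3h1, the main prolyl 3-hydroxylase of type I collagen, was -1.36 and 1.64. Its partners Crtap and Ppib differed less, with -0.07 and 0.11 for Crtap and -0.36 and 0.38 for Ppib (cyclophilin B). P3h2, another prolyl 3-hydroxylase, was well above background on the adherent array alone and was at least 3.05-fold lower in suspension.

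Genes of collagen export and trimming also divided. Pcolce2, an enhancer of procollagen C-proteinase, was -2.64 and 2.61, while the related Pcolce was -0.71 and 0.89. Sec23a, a coat subunit of the vesicles that carry procollagen out of the endoplasmic reticulum, was -1.50 and 1.55, and Creb3l1, a membrane-bound transcription factor known to drive type I collagen in bone, was -1.22 and 1.07. Bmp1, the C-proteinase itself, was 0.09 in suspension and -0.91 after re-adhesion, leaving re-adherent cells at -0.82 from adherent cells on the main probe, while its 3 probes ranged from -0.82 to -0.10 in that pair. Adamts2, the main N-proteinase, was 0.13 and -0.25.

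Over 2-fold higher in suspension were 3 of the 28 processing genes, against 17.2% of all genes. Among them were 2 that supply cofactors of the enzymes. Slc31a1, the copper importer of the cell surface, was 1.38 and -1.16, and Slc23a2, a transporter of vitamin C, the cofactor of prolyl and lysyl hydroxylases, was 1.26 and -1.25. Atp7a, the pump that delivers copper to enzymes such as the lysyl oxidases in the secretory route, was 0.86 and -0.78, under 2-fold at both steps. Atox1, a further copper gene of the list, was 0.23 and 0.26 and so did not fall on re-adhesion. Tmem38b, an ion channel of the endoplasmic reticulum, was 1.32 and -1.34. Colgalt2, a collagen galactosyltransferase, was well above background in suspension alone and there at least 1.28-fold higher, a bound under 2-fold, and its relative Colgalt1 was -0.08 and 0.24.

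The fibrillar collagen chains, the substrates of these enzymes, were a mixed list. In suspension 5 of 9 fell and 2 rose by over 2-fold (median -1.01), against 14.7% and 17.2% of all genes. On re-adhesion 3 were over 2-fold higher and 2 lower (median 0.67), against 15.6% and 16.3% of all genes. In re-adherent against adherent cells 2 were over 2-fold lower (median -0.34), against 4.9% of all genes. Col1a1 was -0.70 and 0.44, Col1a2 -1.01 and 0.67, and Col3a1 0.19 and -0.95. The chains of type V collagen divided, with -1.35 and 1.19 for Col5a1, -1.58 and 0.73 for Col5a2, and 1.45 and -3.87 for Col5a3. Col5a3 was also lower in re-adherent than in adherent cells (-2.42). Col11a2 was 1.44 and -1.15. Col11a1 was -6.23 and 4.95, and Col2a1, not well above background in suspension, was at least 208-fold lower there. Relative to Col1a1 on the same arrays, Lox was -3.80 ± 0.29 in suspension and Plod2 -1.87 ± 0.29.

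Because several of the enzymes are known HIF targets, a list of 15 hypoxia response genes was set beside them. In suspension 1 of the 15 was over 2-fold lower and 4 were over 2-fold higher (median -0.17), against 14.7% and 17.2% of all genes. On re-adhesion 1 was over 2-fold higher and 3 were lower (median 0.11), against 15.6% and 16.3% of all genes. None passed 2-fold between re-adherent and adherent cells (median 0.15), against 4.9% of all genes lower and 4.84% higher. Car9, a carbonic anhydrase, was 2.41 in suspension, Ankrd37 2.13, Pdk1, which holds back pyruvate oxidation, 1.51 and Ndrg1 1.34. Adm, the peptide hormone adrenomedullin, was -5.07 and 5.33. The 4 genes that were over 2-fold higher in suspension ran opposite to Lox, Loxl2 and Plod2, and Adm ran with them. The rest of the list differed by under 2-fold on the main probe. With small differences counted, 9 of the 15 read lower in suspension and 6 higher. Of all 15394 genes, 8192 read lower and 7202 higher there. Among the members, P4ha1 was -0.03 and P4ha2 -0.74 there. A part of HIF in these differences was not tested.

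**Figure D3:**
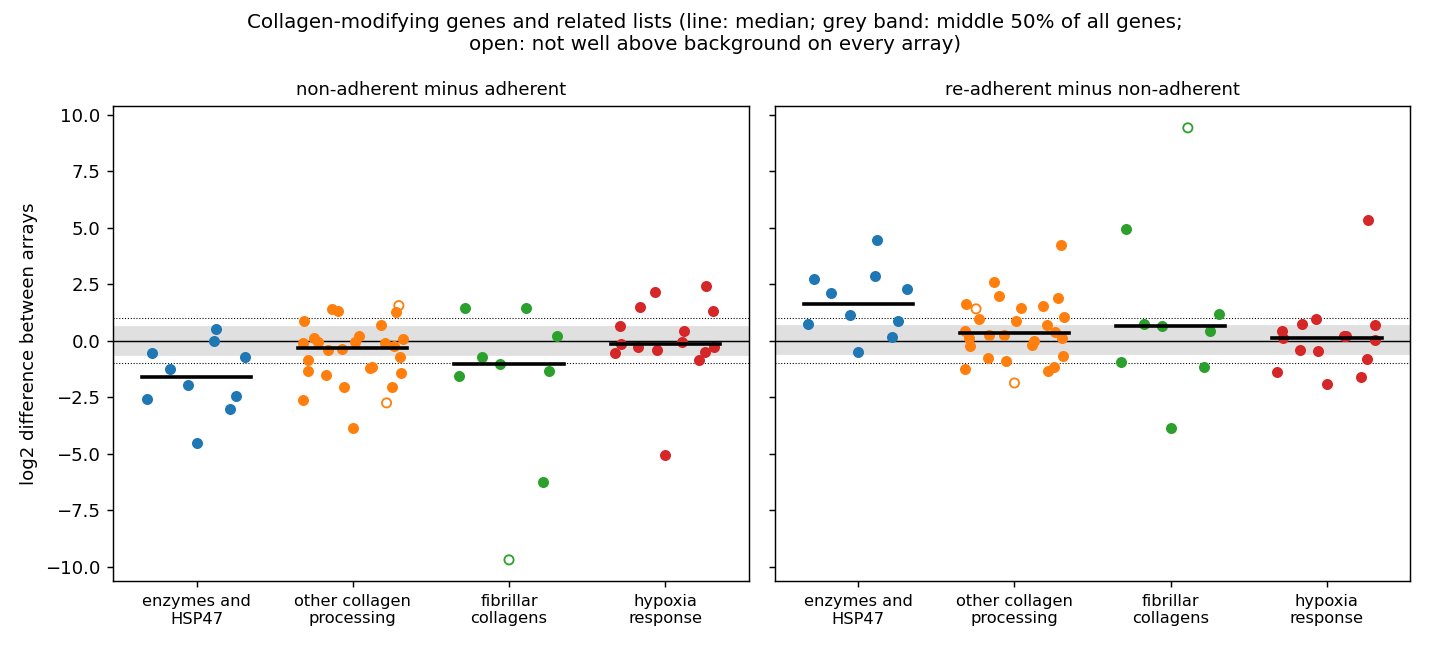
Log2 difference of every measured gene, as read with no bound applied (points) in 4 lists, the 10 genes examined (9 enzyme genes and Serpinh1), the other collagen processing genes, the fibrillar collagens and the hypoxia response genes, for non-adherent minus adherent (left) and re-adherent minus non-adherent (right); 1 array per state, black lines are medians, the grey band is the middle 50% of all genes, dotted lines are 2-fold, and open points are genes not well above background on every array. The medians of the 10 genes, -1.61 and 1.63, lie outside the grey band, and those of the other processing genes, -0.30 and 0.32, lie inside it.

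The cells were checked against marker genes. For their counts, the shares of all genes past 2-fold are those given with the lists above. All 5 contractile myofibroblast markers (Acta2, Tagln, Cnn1, Myl9 and Actg2) were over 2-fold lower in suspension (median -6.80). Their summed level, in units of the array's 75th percentile, was 1650 in adherent, 18.9 in non-adherent and 1629 in re-adherent cells. Postn, which encodes periostin, is also used as a myofibroblast marker but was counted here with the fibroblast markers. It was -0.12 in suspension and -0.09 after re-adhesion, within the technical error of 0.20. The 8 fibroblast markers were all well above background on every array, of which suspension lowered 3 and raised 2 by over 2-fold (median -0.63) and sums of 978.8, 747.5 and 756.2. In these cells, sorted as CD45-negative, 13 of 14 measured macrophage markers were over 2-fold higher in suspension (median 2.69), with sums of 253.2, 1604 and 525, all 14 were well above background on each array, and 7 were over 2-fold higher in re-adherent than in adherent cells. Of 10 endothelial markers, 7 were over 2-fold higher in suspension (median 1.73), 9 were over 2-fold lower on re-adhesion, and 6 were over 2-fold lower in re-adherent than in adherent cells (median -1.77, with Tie1, Emcn and Cldn5, not well above background in re-adherent cells, at their bound). Their sums were 23.8, 38.9 and 22.3, and without Kdr, whose 2 probes disagreed in direction, 9.29, 27.5 and 3.22. The 6 measured cardiomyocyte markers summed to 1.26, 2.02 and 3.41, of which Tnnt2 gave 0.911, 1.37 and 3.04. Without Tnnt2 the sums were 0.351, 0.653 and 0.374. The 3 mural markers summed to 0.077, 0.359 and 0.025. The part of these other cell types in the differences of the 10 genes was not tested.

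For the 5 genes past 4-fold at either step, the genes with the most similar pattern were sought among 13479 genes well above background on all 3 arrays, by the Euclidean distance over the 2 steps. Nearest to Lox were Csf1, which encodes a growth factor of macrophages, Esrp2 and Mfsd2a, at distances of 0.08 to 0.17, and 26 genes lay within 0.5. Nearest to Loxl2 were Lrp2, Tmem45a and Zfp697 (107 genes within 0.5), and nearest to Loxl3 were Fst, the activin inhibitor follistatin, Vdr, the vitamin D receptor, and Limch1 (55 within 0.5). Nearest to Plod2 were Axl, a receptor tyrosine kinase, Zbtb7c and Stk39, with 116 genes within 0.5. Nearest to Serpinh1 were Pvr, Wwc2 and Trip6, with 237 within 0.5. These are likenesses over 3 arrays only.

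**Figure D4:**
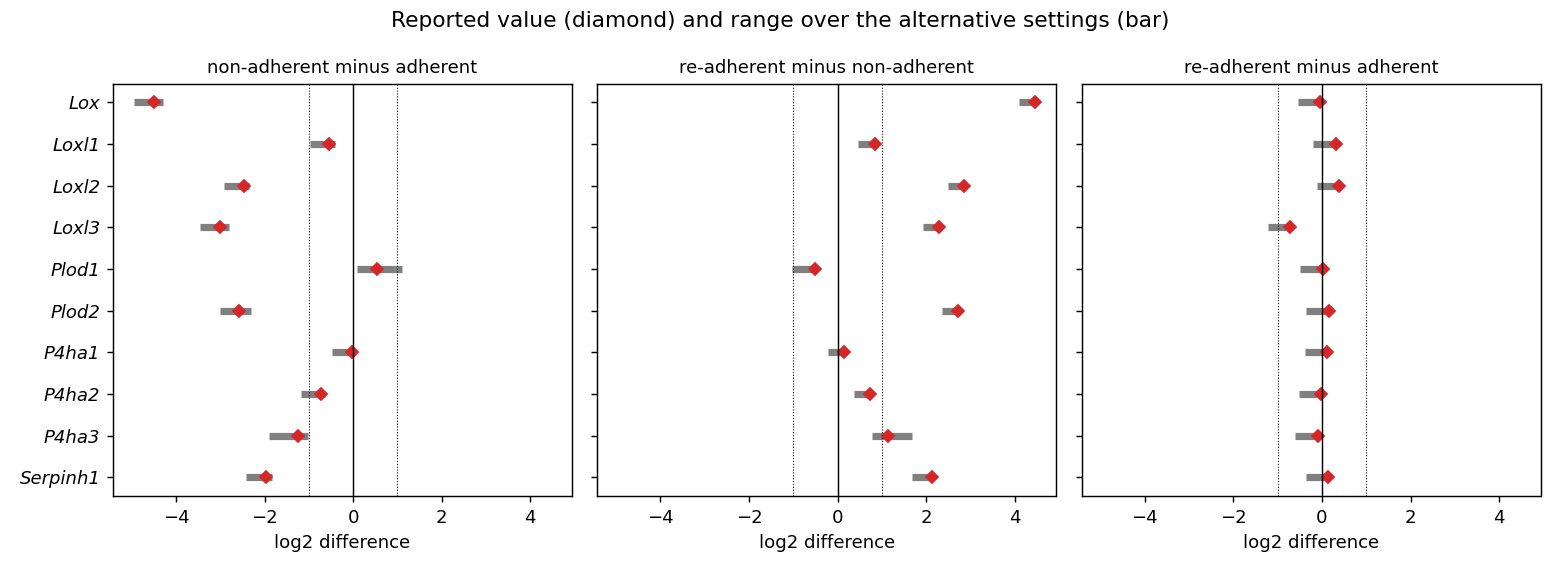
Reported log2 difference of each gene (diamonds) and its lowest to highest value over 11 alternative settings of background correction, scaling, probe choice and filter (grey bars), for the 3 pairs of arrays (1 array per state). At both steps Lox, Loxl2, Loxl3, Plod2 and Serpinh1 stay past the dotted 2-fold lines in every setting, while the bars of P4ha1 cross 0.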

How the data were processed

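Total RNA of 3 samples of mouse cardiac myofibroblasts was measured on 1-colour Agilent arrays, 1 array per state, on 1 slide scanned on 1 day. The authors deposited scanner output of Agilent Feature Extraction 10.10.1.1, in which each spot has a processed signal intensity (background-subtracted, linear scale), its error and its flags. Their matrix held the same intensity times 1 constant per array (1.521, 1.522 and 1.619) and served as an alternative. The 3 arrays held 62976 spots each, of which 59305 were not controls. In the order adherent, non-adherent, re-adherent, 34448, 35538 and 31994 of them were well above background, and the 75th percentile of the signal was 650.9, 696.6 and 541.3 units. No non-control spot was saturated, and 154, 180 and 175 flagged spots were left out.

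Arrays were scaled by subtracting the log2 of their own 75th percentile from the log2 signal. Probes were named through RefSeq accessions of GRCm38.p6, without version. Of 37881 transcript names 21465 matched, which named 27235 of 55681 probes. The array was designed on an earlier assembly, so gene coordinates are given for promoter windows only. Of several probes of a gene, the brightest on average was used. Where 1 array of a pair was not well above background, the fold is a lower bound set by the lowest signal well above background there. Counts over lists use these bounds, and the shares of all genes use the values as read. With 1 array per state no test was run, and called means over 2-fold. The median technical error of a log2 difference was 0.20 from the software and 0.10 or 0.09 from 265 repeated probes, and different probes of 1 gene had a median SD of 0.11 to 0.18 (3483 genes). These errors leave out variation between cultures, and the number of arrays limits the precision.

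All 10 genes are named with every probe. From the lists of collagen processing, fibrillar collagen and hypoxia genes, those past 2-fold were named, up to 12 by size and well above background on both arrays, with those placed beside a member for their role. For members past 4-fold the 3 genes nearest over both steps are named. The members, lists and markers were chosen with earlier results of these data known. Alternatives were normexp correction (offset 50) in limma 3.58.1, other scalings, floors, filters, probe rules and thresholds. Normexp used the median spot signal in place of the planned mean signal. Calculations used Python 3.11.15 and R 4.3.3 and were tested on simulated data.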

Additional observations from a re-analysis of the deposited data

How the results depend on the processing

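Of 330 values of the 10 genes under 11 alternatives, 265 moved by less than the technical error, 65 moved by more (20 each with no scaling and with the spike-in scaling, 10 in the authors' matrix, 6 with normexp, 5 with quantile normalization and 4 with the mean of all probes), and none that was over 2-fold changed sign. The count of 6 genes lower in suspension and 6 higher on re-adhesion stayed within 1.5 times under all alternatives. In suspension it was 7 with the spike-in scaling and 4 at the 4-fold threshold. On re-adhesion it was 5 with normexp, with no scaling, in the authors' matrix and at the 4-fold threshold. The median of the 10 differences for re-adherent minus non-adherent, 1.63 as reported, was 1.42 with quantile normalization, 1.27 with no scaling, 1.36 in the authors' matrix and 1.90 with the mean of all probes. For non-adherent minus adherent it was -2.05 with the spike-in scaling and -1.94 with the mean of all probes. For re-adherent minus adherent it was -0.19 with no scaling and -0.44 with the spike-in scaling. The spike-in scaling counted 1 gene, Loxl3, as lower in re-adherent than in adherent cells, and the mean of all probes counted 1 gene, Plod1, as higher in suspension and 1, again Plod1, as lower on re-adhesion. The cause of these moves was not tested.

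The spike-in scaling moved the median of all genes in suspension from -0.07 to -0.51, with 27.3% of genes over 2-fold lower and 11.7% higher, and in re-adherent against adherent cells 13.2% lower and 2.18% higher. On re-adhesion 23.4% were lower and 9.90% higher with no scaling, and 21.2% and 11% in the authors' matrix. The signs of Loxl1, Loxl2, Plod1, Plod2, P4ha1 and Serpinh1 in re-adherent against adherent cells turned under at least 1 scaling. No spot lay in a bright or dark patch by the rule used, so leaving patches out changed nothing; medians around the spots of the 10 genes lay between -0.31 and 0.19. No paired analysis was possible because every state had a single array, and no array could be left out for the same reason.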
